A study of Homo sapiens with 2 samples.

Results

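The regions described are 2058 intergenic peaks of DMSO-treated PANC-1 cells, out of 15186 DMSO peaks on chromosomes 1 to 22 and X (13.6%). A peak was taken when its summit, the base of highest signal, lay in no protein-coding gene, more than 1 kb from every end of a long non-coding RNA (lncRNA) gene, and more than 1 kb but at most 50 kb from the nearest end of a protein-coding gene. The other DMSO peaks lay within 1 kb of a coding gene end (8218), inside a coding gene (3598), within 1 kb of a lncRNA gene end (571) or beyond 50 kb (741). Positions were set against the RefSeq gene table of GRCh38.p14, and the median distance from an intergenic summit to the nearest coding gene end was 11507 bp. An inflachromene peak overlapped 992 of these 2058, and 1066 (51.8%) had none, where 35.5% of all DMSO peaks had none. Overlap was more frequent at the stronger peaks, within 1 kb of small RNA genes and within 1 kb of pseudogenes. The peak 32124 bp from NID1 had the highest fold enrichment of the whole DMSO list; fold enrichment is the authors' ratio of the signal at the summit to the local background.

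PANC-1 is an established human pancreatic ductal adenocarcinoma line. The series has 1 sample treated with DMSO, the solvent control, and 1 treated with inflachromene, both profiled by ChIPmentation, in which Tn5 transposase adds sequencing adapters to immunoprecipitated chromatin. Both were crosslinked with EGS and then formaldehyde, and no genotype or other agent is given for either. Inflachromene is a compound that binds HMGB1 and HMGB2, chromatin proteins of the high-mobility group. Its dose, how long it was applied and what the antibody recognised are not stated in the sources at hand. As each treatment has 1 sample and no replicate, no difference below was tested and no p-value is given. Intervals of shares and of single peaks are exact 95% intervals (Clopper-Pearson for shares, Poisson or binomial for fragments) that cover counting error only. The 95% interval of a median ratio comes from the ranked ratios and takes the peaks as independent, though they are not replicates. No interval says how cultures vary.

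The inflachromene list held 10836 peaks on the same chromosomes. The libraries were of like depth, the number of inflachromene fragments being inferred as 0.964 times that of DMSO. The inferred fragment length was 152.3 bp in DMSO and 165.7 bp in inflachromene, and the lowest local background 0.651 and 0.683 fragments. The narrowest peak was 152 bp wide in DMSO and 165 bp in inflachromene. Ratios of fragment numbers below were not scaled for any of these differences. Both lists had a median of 23 fragments over the summit and a lowest of 7. That number of fragments, the pileup, was recovered from the deposited values and is given for every peak named below, first in DMSO and then in inflachromene. Of all coding genes, 45.7% had a DMSO peak within 1 kb of an end. Among 9 genes that mark PANC-1, 6 (KRT8, KRT18, KRT19, VIM, CAV1 and SOX9) had a DMSO peak at an end, while KRT7, CDH1 and EPCAM did not. None of 8 acinar and islet markers had one. Of the other marker genes, SPI1 among 6 immune genes, PDGFRB among 6 fibroblast and endothelial genes, and SNAP25, SYT1, GRIN1 and APOA1 among 6 neuronal and liver genes had one. End peaks were as frequent among the neuronal and liver genes as among the PANC-1 genes, so these counts do not identify the line. A peak list does not measure expression.

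As background, the DNA between genes holds enhancers, which bind transcription factors and act on promoters at a distance. It also holds the starts of non-coding transcripts and the small RNA genes (tRNA, 5S rRNA, U6) that RNA polymerase III transcribes. Chromatin at active enhancers and promoters is open, and many factors and cofactors are found there together. Near oncogenes and immediate early genes, enhancers often come in clusters.

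Mature sequences are shown for microRNA genes with the summit of an intergenic peak within 1 kb. Of the 8 such peaks, 4 lay at genes of 1 family and were among the strongest near any small RNA gene. Sequences are those of RefSeq on GRCh38.p14, written 5′ to 3′ with the seed, bases 2 to 8, in capitals. All 8 microRNA genes were found there. The 4 MIR3180 genes lie on chromosome 16 and give 3 distinct mature sequences; hsa-miR-3180-3p and hsa-miR-3180 share the seed GGGGCGG.
hsa-miR-3180-3p: uGGGGCGGagcuuccggaggcc
hsa-miR-3180: uGGGGCGGagcuuccggag
hsa-miR-3180-5p: cUUCCAGAcgcuccgccccacgucg
hsa-miR-1281: uCGCCUCCuccucuccc

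At the MIR3180 genes the 4 summits lay 1 to 27 bp from an end of the hairpin, and the summit at MIR3180-2 lay inside it. The peak at MIR3180-1 (chr16:14910987-14911615, 15170 bp from NOMO1) had 125 fragments in DMSO and 76 in inflachromene. At MIR3180-3 (chr16:18401908-18402481) the pileups were 116 and 80, at MIR3180-2 (chr16:16309656-16310279) 107 and 84, and at MIR3180-4 (chr16:15154762-15155228) 76 and 47. All 4 were lower in inflachromene, with ratios of inflachromene to DMSO pileup between 0.608 and 0.785. The hairpins of MIR3180-1 and MIR3180-3 are identical and the surrounding PKD1P and NPIP sequence is repeated, so fragments cannot be assigned to 1 copy with certainty. MIR1281 lay outside the peak counted for it, its hairpin starting 925 bp from the summit. That peak, 1004 bp from the start of EP300, an acetyltransferase gene, had 63 and 28 fragments, a ratio of 0.444. Of the other 3, MIR4521 had a peak in both samples (45 and 36 fragments), while the peaks near MIR6068 (23 fragments) and MIR1915 (21 fragments) were not called in inflachromene.

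Of the 2058 peaks, 16 overlapped a window from 250 bases before to 50 after an annotated lncRNA start, and 11 had their summit in that window. The rule kept them because it measures from a gene's outermost ends, and these starts lie between those ends. The 4 with the summit inside and the highest fold enrichment are shown, since for these a transcript start is annotated at the peak itself. Each is the 300-base window in the direction of the transcript, from RefSeq on GRCh38.p14, with matches to 7 promoter motifs in capitals.
LOC105370680, chr14:102524570-102524869, plus strand: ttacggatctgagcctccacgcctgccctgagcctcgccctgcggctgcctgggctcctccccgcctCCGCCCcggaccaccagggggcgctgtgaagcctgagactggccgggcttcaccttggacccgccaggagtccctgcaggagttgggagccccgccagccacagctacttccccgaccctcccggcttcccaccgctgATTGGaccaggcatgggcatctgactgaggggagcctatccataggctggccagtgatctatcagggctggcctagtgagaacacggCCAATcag
LOC105370034, chr12:121686885-121687184, plus strand: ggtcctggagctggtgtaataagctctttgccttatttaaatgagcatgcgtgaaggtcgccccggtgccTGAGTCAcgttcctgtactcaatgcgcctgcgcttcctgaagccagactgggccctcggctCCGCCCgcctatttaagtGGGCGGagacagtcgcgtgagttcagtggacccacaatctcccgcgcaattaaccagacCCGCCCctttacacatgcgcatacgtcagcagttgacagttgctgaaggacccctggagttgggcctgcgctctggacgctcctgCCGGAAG
OIP5-AS1, chr15:41283740-41284039, plus strand: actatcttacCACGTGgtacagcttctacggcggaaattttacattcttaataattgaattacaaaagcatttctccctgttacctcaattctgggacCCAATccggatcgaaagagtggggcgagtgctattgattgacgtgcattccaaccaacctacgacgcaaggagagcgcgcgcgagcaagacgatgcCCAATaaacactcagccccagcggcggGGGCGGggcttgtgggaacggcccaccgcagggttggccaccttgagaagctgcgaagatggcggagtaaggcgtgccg
LOC105369764, chr12:49967117-49967416, minus strand: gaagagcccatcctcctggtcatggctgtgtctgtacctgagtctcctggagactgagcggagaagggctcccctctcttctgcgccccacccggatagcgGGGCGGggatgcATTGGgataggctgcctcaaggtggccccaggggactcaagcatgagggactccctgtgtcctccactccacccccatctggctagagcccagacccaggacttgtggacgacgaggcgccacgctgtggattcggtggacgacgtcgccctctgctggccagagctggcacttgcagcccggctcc

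The motifs were searched on both strands, and none lies within another: CRE (TGACGTCA, in 1.84% of 34796 RefSeq windows of this length), AP-1 (TGANTCA, 7.73%), ETS (CCGGAAG, 10.2%), the CCAAT box (CCAAT, 34.6%), the E-box (CACGTG, 7.21%), the TATA box (TATAAA, 11.6%) and the GC box (GGGCGG, 44.9%). The LOC105370680 window held 2 CCAAT boxes and 1 GC box. The LOC105370034 window held 3 GC boxes, 1 AP-1 match and 1 ETS match, the OIP5-AS1 window 2 CCAAT boxes, 1 GC box and 1 E-box, and the LOC105369764 window 1 CCAAT box and 1 GC box. A match is a description of the letters and not a bound site. The LOC105370680 summit, 15010 bp from ANKRD9, carried 81 fragments in DMSO and 65 in inflachromene. The LOC105370034 summit, 14392 bp from MORN3, carried 51 and 40. The OIP5-AS1 summit, 2011 bp from CHP1, carried 28 in DMSO and 32 in inflachromene. LOC105369764, 1468 bp from the water channel gene AQP5, had 35 fragments in DMSO and no inflachromene peak. In all, 11 of the 16 peaks at such windows were shared, as were 6 of the 11 with the summit inside. SNHG12, the host of small nucleolar RNAs, was among these, with 32 and 25 fragments.

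The first comparison asked which DMSO peaks were called again in inflachromene-treated cells. Of the 2058 intergenic peaks, 992 (48.2%, 46.0 to 50.4) overlapped an inflachromene peak by at least 1 bp, and 1066 (51.8%) did not. Over all DMSO peaks the share without an inflachromene peak was 35.5%. The share called again was 76.2% (75.3 to 77.1) within 1 kb of coding gene ends, 61.5% (57.3 to 65.5) at lncRNA ends, 51.7% (50.05 to 53.3) inside genes and 44.5% (40.9 to 48.2) beyond 50 kb. The intergenic share was thus below that at gene ends by far more than the counting error. It was close to that inside genes, whose interval overlaps it. Seen from the other list, 1230 inflachromene peaks met the same rule, 40.2% fewer than in DMSO, where all peaks together were 28.6% fewer. Of these 1230 peaks, 81.0% (78.7 to 83.1) overlapped a DMSO peak.

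The peaks that were not called again were mostly far from any inflachromene peak. Their median gap to the nearest one was 27804 bp, and 49 of 1066 (4.60%) had one within 1000 bp. They were weaker in DMSO: the median summit pileup was 16 fragments against 26 for the shared peaks, the median fold enrichment 6.42 against 7.89 and the median width 201 bp against 320 bp.

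The intergenic peaks as a whole were weaker than those at gene ends. Their median DMSO pileup was 20 fragments against 27, their median fold enrichment 6.979 against 8.997 and their median width 238.5 bp against 351 bp. Strength was therefore held level by dividing all DMSO peaks into 5 equal groups by fold enrichment. In the weakest group 31.1% of intergenic peaks and 36.9% of gene-end peaks were called again. In the middle groups the shares were 38.3% and 53.2%, then 49.5% and 70.7%, then 72.2% and 89.9%. In the strongest group, 95.6% (90.6 to 98.4) of 135 intergenic peaks and 99.0% of 2400 gene-end peaks were called again. The gene-end share was the higher one in each group. Weighted to the intergenic peaks' own strengths, it was 61.8%, and the intergenic share lay 13.6 percentage points below it. The same weighting put the share inside genes at 50.7% and that beyond 50 kb at 44.6%, on either side of the 48.2% seen. By −log10 p or by pileup the share beyond 50 kb came to 49.2% or 53.4% instead, above 48.2%. Width was not held level: in each group the intergenic peaks had the smaller median width. It was 204 bp against 233 bp at gene ends in the weakest group, 244 against 318 in the middle one and 428 against 441 in the strongest. The part of width in the gap, and what else differs between gene ends and intergenic sites at equal strength, was not tested.

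**Figure D1:**
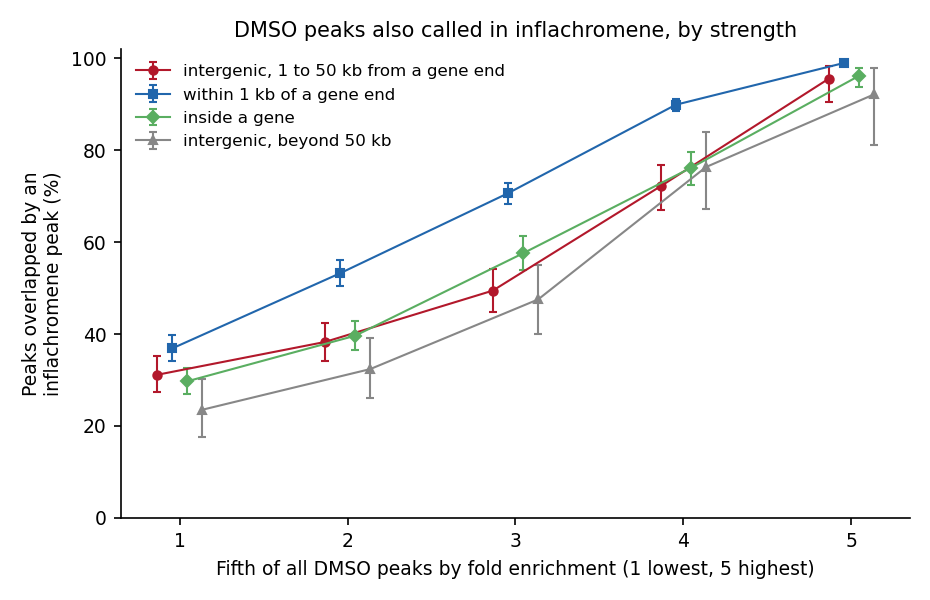
Share of DMSO peaks overlapped by an inflachromene peak (y axis, percent, with exact 95% intervals) in 5 equal groups of all DMSO peaks by fold enrichment (x axis), for 4 classes of position. Intergenic peaks between 1 and 50 kb from a gene end (red) go from 31.1% to 95.6%, below the gene-end peaks (blue) in each group and near those inside genes (green).

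The share called again was lowest in the bin nearest to the gene and similar further out. Between 1 and 2.5 kb from the nearest coding gene end, 103 of 255 peaks (40.4%, 34.3 to 46.7) were called again. The shares were 50.9% of 279 peaks between 2.5 and 5 kb, 53.2% of 404 between 5 and 10 kb, 46.7% of 473 between 10 and 20 kb and 48.1% of 647 between 20 and 50 kb. The intervals of the outer 4 bins overlap one another, and that of the innermost bin ends below the interval of the 5 to 10 kb bin (48.2 to 58.2). The innermost bin also had the lowest median fold enrichment, 6.12, and the highest median local background, 2.74 fragments, where the outermost had 1.68. Strand was known for the nearest gene of 1594 peaks: 823 lay nearest to a start and 771 nearest to a 3′ end. The share called again was 49.7% on the start side and 48.5% on the 3′ side, with overlapping intervals. The median pileup was 20 fragments on both sides.

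The share differed more between annotations at the summit than between distances. A small RNA gene lay within 1 kb of 144 summits, and 108 of these (75%, 67.1 to 81.8) were called again. A pseudogene lay within 1 kb of a further 151, with 56.3% called again (48.0 to 64.3). Another 292 lay inside a lncRNA gene (45.2%), and 1471 had none of these annotations (45.3%, 42.8 to 47.9). At the unannotated peaks' share for equal fold enrichment, 46.7% of the small RNA sites would have been called again, 28.3 points below the 75% seen. Small RNA sites also had more fragments, with a median of 30.5 against 19, and at equal pileup that difference was 6.92 points. For pseudogenes the differences were 2.52 points at equal fold enrichment and 5.97 points at equal pileup.

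**Figure D2:**
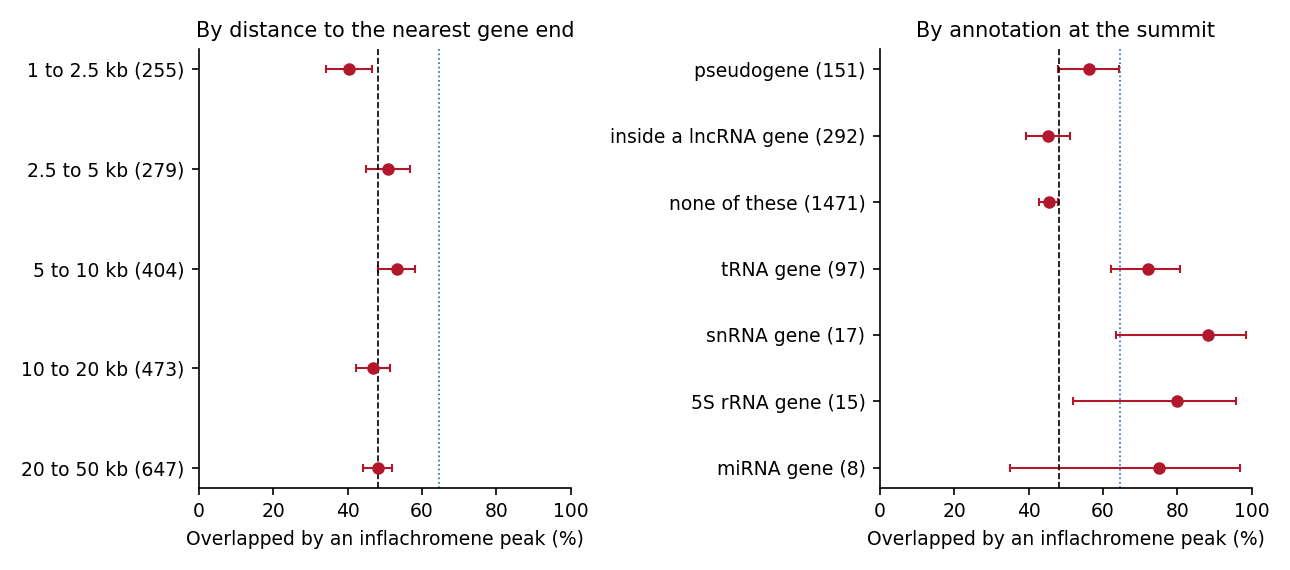
Share of the intergenic DMSO peaks overlapped by an inflachromene peak (x axis, percent, with exact 95% intervals), by distance to the nearest coding gene end and by annotation within 1 kb of the summit, with the number of peaks in brackets. The dashed line is the 48.2% of all 2058 and the dotted line the 64.5% of all DMSO peaks. The points of the tRNA, snRNA, 5S rRNA and miRNA gene groups lie above both lines, while each of their intervals includes the dotted one.

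At the 992 shared positions the summit pileup was mostly lower in inflachromene. It was lower at 691, equal at 71 and higher at 230, and the inflachromene to DMSO pileup ratio had a median of 0.853 (0.837 to 0.870). The share that was lower, 69.7%, stood beside 74.7% over all shared peaks of the series. The median ratio was 0.824 at gene ends, 0.842 inside genes and 0.857 beyond 50 kb. The ratio varied with strength: in the weakest group of intergenic peaks the median was 1.00, and in the strongest 0.762, where gene-end peaks had 0.769. A weak peak enters this count when its inflachromene pileup was high enough to be called, which by construction keeps low ratios out of the weak groups. The groups were formed by DMSO fold enrichment, which rises with the DMSO pileup, the denominator of the ratio. The strong groups are thus picked towards low ratios, and the trend with strength is a description only. Among the 344 of these peaks whose mean pileup was 30 fragments or more, the median was 0.827 (0.803 to 0.846), and 276 were lower in inflachromene. The same at gene ends was 0.808 (0.8 to 0.818), so the intervals overlap. The middle 50% of the ratios at shared intergenic peaks ran from 0.724 to 1.00. By the authors' fold enrichment 695 of the 992 were lower, with a median ratio of 0.895, and 54 with a lower pileup had a higher fold enrichment. At 40 of the 992 the summits were more than 250 bp apart, and 6 inflachromene peaks overlapped 2 of the DMSO peaks each.

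**Figure D3:**
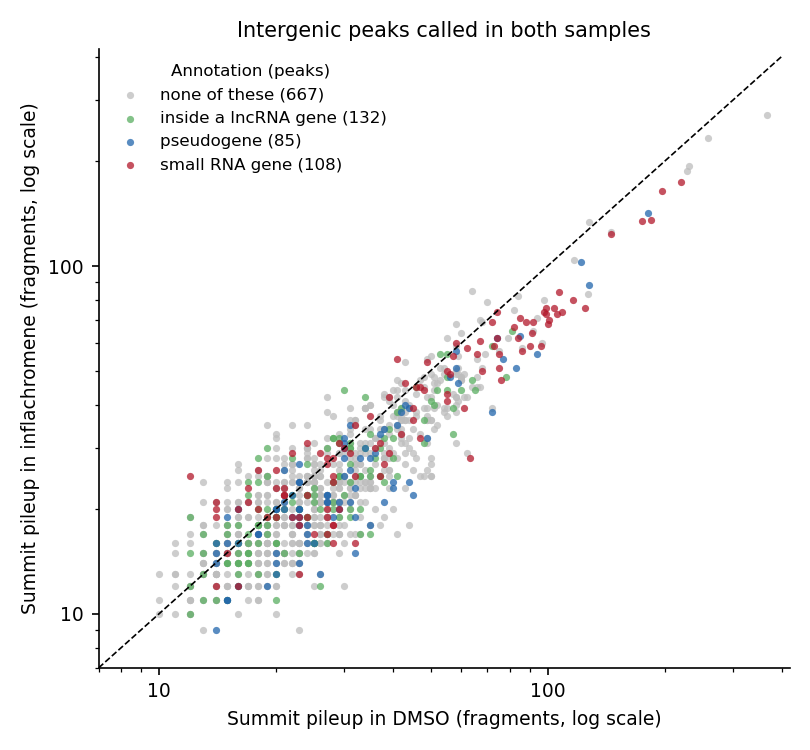
Summit pileup in DMSO (x axis) and in inflachromene (y axis), in fragments on log scales, for the 992 intergenic peaks called in both samples, coloured by annotation; the dashed line marks equal pileups. 691 points lie below the line, among them those with the most fragments, up to 367 in DMSO and 272 in inflachromene.

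Transfer RNA genes, which RNA polymerase III transcribes from promoters inside the gene, were the largest group of small RNA neighbours. Of 97 peaks within 1 kb of a tRNA gene, 70 (72.2%, 62.1 to 80.8) were called again, with a median pileup of 27 fragments and a median ratio of 0.914. The strongest by fold enrichment was at TRG-CCC1-1, a glycine tRNA gene (chr1:16545228-16546022), with 175 fragments in DMSO and 135 in inflachromene. TRL-TAA1-1, a leucine tRNA gene 24378 bp from STX11, had 45 and 39. Both positions were marked in both samples, and the interval of the second ratio (0.550 to 1.36) includes 1. Many tRNA genes exist in near-identical copies, so their fragments may be shared among copies.

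Small nuclear RNA genes, whose products build the spliceosome, had the widest peaks. Of 17 peaks near one, 15 were called again, with a median width of 1152 bp. The 3 widest of all 2058 peaks lay at the U1 genes on chromosome 1. At RNU1-3 (chr1:16665093-16667343) the pileups were 146 fragments in DMSO and 124 in inflachromene. At RNU1-1 (chr1:16512530-16514638) they were 185 and 136, and at RNU1-2 (chr1:16895890-16897738) 197 and 164. All 3 pileups were lower in inflachromene, with ratios from 0.735 to 0.849, and only the interval at RNU1-1 (0.585 to 0.922) lies wholly below 1. As all 3 genes encode U1, fragments may be shared among the copies, and the 3 ratios may not be separate measurements. Their local background was lower as well, so the authors' fold enrichment was higher in inflachromene at all 3: 7.78 and 8.42 at RNU1-3, 7.81 and 7.91 at RNU1-1, and 12.52 and 13.25 at RNU1-2. RNU5A-1, a U5 gene 9602 bp from PARP16, had 75 and 51 fragments. RN7SL2, which encodes the RNA of the signal recognition particle, had 74 and 62.

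The 5S rRNA genes, the Pol III genes for the smallest RNA of the large ribosomal subunit, formed the longest row of peaks. All 17 annotated copies on chromosome 1, spaced 2241 bp apart at the median, carried a DMSO peak; 15 were intergenic by the rule, while the summit at RNA5S16 lay within 1 kb of a coding gene end and that at RNA5S17 inside a coding gene. Their summits lay 112 to 231 bp above the lower coordinate of the gene, with a median of 150 bp; the table used gives no strand for these genes. The 15 peaks had 72 to 101 fragments in DMSO (median 90) over a local background of 21.7 to 33.2 fragments, so their fold enrichment was low, between 2.28 and 3.79. In inflachromene 12 were called, with 56 to 74 fragments (median 68.5) over a background of 16.7 to 25.2. All 12 pileups were lower, and their ratios lay between 0.615 and 0.835 with a median of 0.738. The background was lower too, and by fold enrichment 8 of the 12 were lower and 4 higher. RNA5S5, RNA5S9 and RNA5S15 had 83, 83 and 72 DMSO fragments and no inflachromene peak. The copies are near-identical, so the per-gene values cannot be taken as 15 separate measurements. Without these 15 peaks the share called again was 48.0% and the median ratio 0.857.

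**Figure D4:**
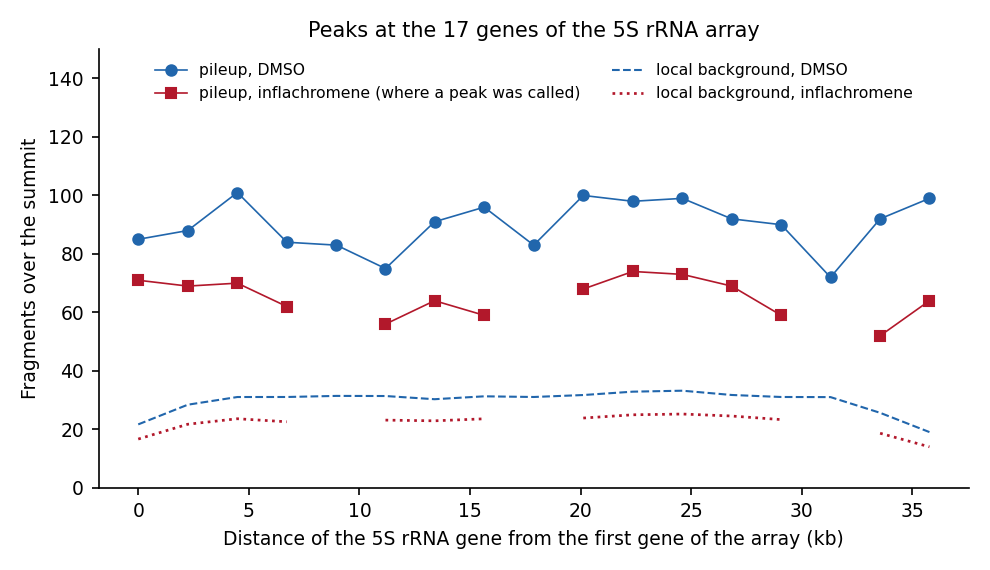
Fragments over the summit (y axis) at the 17 genes of the 5S rRNA array, by distance of each gene from the first (x axis, kb), in DMSO (circles) and, where a peak was called, in inflachromene (squares), with the local background as dashed and dotted lines. DMSO pileups of the intergenic copies lie between 72 and 101 and the inflachromene ones between 56 and 74, with backgrounds of 21.7 to 33.2 and 16.7 to 25.2.

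The strongest intergenic peaks had a fold enrichment of 16.9 to 37.5, and each of the top 10 was called again. The highest lay at chr1:236097116-236097396, 32124 bp from the start of NID1, which encodes the basement membrane protein nidogen, with the pseudogene ACO2P2 at 13606 bp. It had 367 fragments in DMSO and 272 in inflachromene, a ratio of 0.741 (0.631 to 0.869). Although so tall, it was only 281 bp wide. The top 10 also held 4 positions in the repeated segments of chromosome 7 and a peak near CHST5, a sulfotransferase gene. The peak at PMS2P2, nearest to SPDYE15, had 77 and 54 fragments, that at NCF1C, nearest to GTF2IRD2B, 94 and 56, that at PMS2P7 near SPDYE8 85 and 63, and that at STAG3L2 near SPDYE12 58 and 51. All 4 lie in a pseudogene or within 1 kb of one that has close copies, so their fragments cannot be assigned to 1 locus with certainty. The CHST5 peak had 51 and 39.

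Of the other 4, a peak 11222 bp from RAP1GAP2 had 58 and 50 fragments and one 4427 bp from SIRT4, a mitochondrial sirtuin gene, had 52 and 46. Both intervals include 1. A peak 9783 bp from ACP4 had 83 and 51 fragments, a ratio of 0.614 (0.425 to 0.881). One 19072 bp from SEMA4B had 72 and 38, a ratio of 0.528 (0.347 to 0.792). Both lie in a pseudogene or within 1 kb of one, TMEM277P and RN7SL346P. Whether their fragments are shared with other copies was not tested. Of the 20 strongest peaks, 8 lay at a pseudogene (40.0%), where 7.34% of all the intergenic peaks did. Among the 100 strongest, 21 did and 98 were called again.

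The strongest peaks without an inflachromene peak had 21 to 46 fragments. At the highest, 1134 bp from the 3′ end of C2CD4D (chr1:151836586-151836806), 46 fragments stood over a background of 2.32. Inflachromene peaks with a background within 10% of that were called from 12 fragments on. The nearest inflachromene peak was 2885 bp away. A peak 19238 bp from HRH2, a histamine receptor gene, had 35 fragments with the nearest inflachromene peak 343776 bp away. The peak near LMLN had 31 fragments, that near B4GALNT3 27, that near TENM2, a teneurin gene, 27, that near ZFAND3 26, that near TSPAN16 25 and that near XNDC1N 21. At backgrounds within 10% of these 7, inflachromene peaks were called from 8 to 11 fragments on. Each of the 8 DMSO pileups was more than 2 times the lowest one called at a like background. For a position without a peak, neither the inflachromene pileup nor its background is in the list. What could have been called there is thus not known.

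Among the same 344 peaks, the lowest ratio was 5178 bp from NFATC2IP (chr16:28945575-28945932), with 44 fragments in DMSO and 18 in inflachromene, a ratio of 0.409 (0.222 to 0.723). The peak before EP300 followed with 63 and 28, then those near GREP1 (62 and 29), GOLGA6L4 (45 and 22), DDIT4, a stress-induced inhibitor of mTOR signalling (50 and 25), and UNC93A (40 and 20). The GOLGA6L4 peak lies in the pseudogene GOLGA2P7 or within 1 kb of it, and whether its fragments are shared with other copies was not tested. All 6 intervals lie below 1. They are the extremes of 344 and were picked for their ratio, so they are a description only. The highest ratios were near FSCN1, which encodes the actin-bundling protein fascin (27 and 42), UTP14A (30 and 44), MEF2D (27 and 38) and WEE1, a cell cycle kinase gene (64 and 85). Each of these 4 intervals includes 1. At FSCN1 and UTP14A the inflachromene summit lay 537 and 766 bp from the DMSO summit, so the 2 pileups are at different places. The inflachromene peak matched at FSCN1 also overlapped the next DMSO peak, which had 58 fragments. At WEE1 (chr11:9613968-9614436, 24148 bp away) the ratio was 1.33 (0.949 to 1.87).

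**Figure D5:**
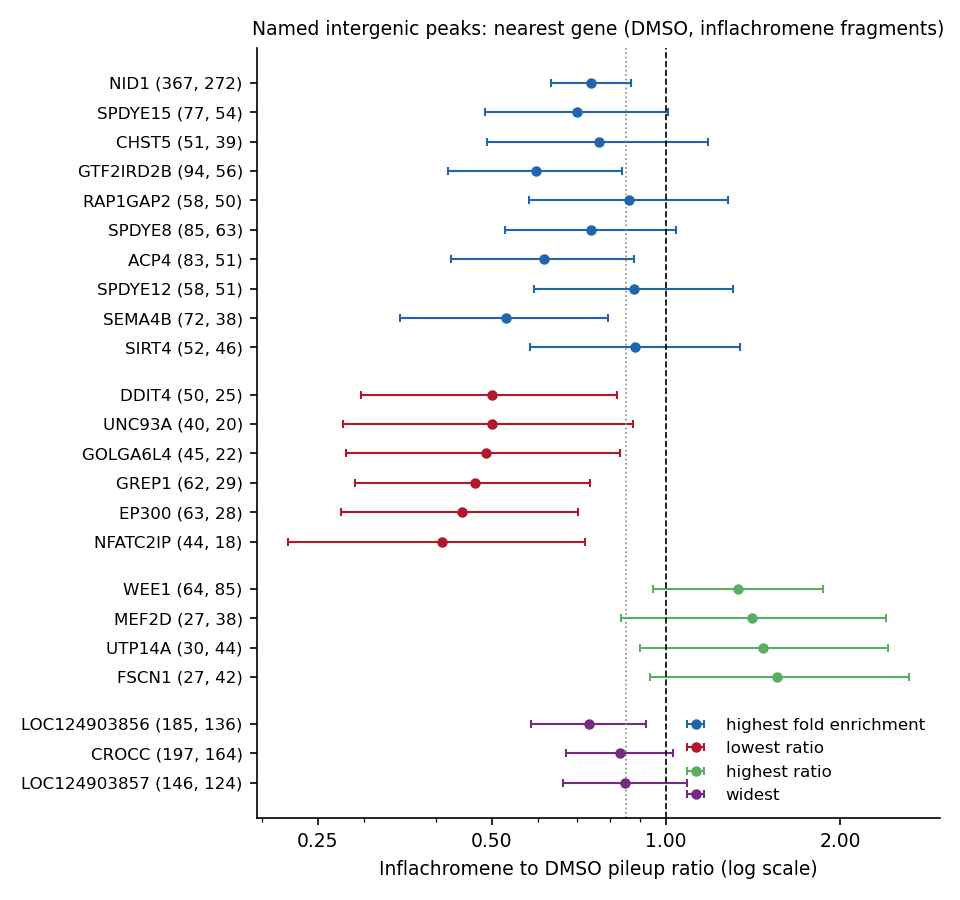
Inflachromene to DMSO pileup ratio (x axis, log scale) with its exact 95% counting interval for the 10 intergenic peaks of highest fold enrichment, the 6 of lowest and 4 of highest ratio, and the 3 widest, named by the nearest coding gene with both pileups in brackets. The dashed line is equality and the dotted line the median of 0.853; the 6 lowest lie wholly below 1 and the 4 highest each reach below it, and at FSCN1 and UTP14A the 2 summits are 537 and 766 bp apart.

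Some of the peaks stood in clusters. Joining summits at most 12500 bp apart gave 33 runs of 3 or more with 132 peaks in all, while 1606 stood alone. Of the 132, 62.1% (53.3 to 70.4) were called again against 45.9% of those alone (43.4 to 48.4). The clustered peaks had a median of 35.5 fragments and a local background of 4.85, those alone 19 and 1.72. The count depends on the joining distance: at 5 kb, 41 peaks stood in runs. Of these, 63.4% (46.9 to 77.9) were called again, against 47.0% of the peaks then alone. The run at the 5S array, with 16 peaks of which 12 were called again, is in both counts of clustered peaks. Its copies are not separate measurements, and it was not taken out of either share. After the 5S array, the run with the most peaks lay near ACTB, the beta-actin gene, and FSCN1 (chr7:5549301-5570408). Its 7 peaks had 19 to 58 DMSO fragments, and 4 were called again. The last 2 of these, with 27 and 58 fragments, were overlapped by the same inflachromene peak of 42.

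A run of 6 lay across tRNA genes between OR1F1 and ZNF213 on chromosome 16, with 31 to 61 fragments and 4 called again. Another 6, 42 to 54 fragments each, lay near MAP3K10 and ZNF780A on chromosome 19, over a background of 7.54 to 12.3. Near TOMM20, which encodes a subunit of the mitochondrial import receptor, 6 peaks had 13 to 38 fragments, 1 of them inside the lncRNA gene LINC01348. In both runs 4 were called again. The 5 peaks near IDH2 and SEMA4B included the 72-fragment peak already named. The 5 near H4C8, in the histone gene region of chromosome 6, all had a tRNA gene within 1 kb.

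The tallest peaks by fragments alone were not all strong by enrichment. Beside NID1, the highest pileups were near RPS16 (259 and 234 fragments), OR2V2 (231 and 194), ZFP36 (228 and 187) and PLEKHG2 (220 and 175). The RPS16, ZFP36 and PLEKHG2 peaks lie close together on chromosome 19, over local backgrounds of 50.7, 55.9 and 110.6 fragments, so their fold enrichments were 5.03, 4.03 and 1.98. The part of this background in the results was not tested beyond leaving the chromosome out. Without chromosome 19 the share called again was 47.6% and the median ratio 0.857.

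The genes next to the peaks were read through 15 lists of neighbouring genes. In all, 1682 of 19970 coding genes (8.42%) were the nearest gene of an intergenic peak; of the 294 listed genes, 60 (20.4%) were, with 88 peaks, of which 44 were called again (50%, 39.2 to 60.8). That share is near the 48.2% of all. A nearest gene is a position and does not show which gene a site acts on.

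Immediate early and stress genes, which respond within minutes to growth factors and damage, had the most peaks: 21, at 9 of 23 genes (39.1%). Of these peaks, 14 were called again. Their medians were 32 fragments, a local background of 5.26 and a fold enrichment of 5.41. All 2058 had medians of 20, 1.94 and 6.98, so these peaks were taller but less enriched. ID1, an inhibitor of differentiation that binds bHLH factors, had 4 peaks with 60, 35, 49 and 57 DMSO fragments. In inflachromene these were 47, 31, none called and 43. BHLHE40, a circadian repressor, had 3 peaks with 94, 117 and 43 fragments in DMSO and 71, 104 and 44 in inflachromene. IER2 had 3 peaks in both samples with 36, 26 and 20 DMSO fragments and 30, 23 and 21 in inflachromene. At ZFP36L1, an mRNA decay factor gene, one peak had 29 and 17 and the other, with 13, was not called again. The 2 peaks of IER5, with 22 and 17 fragments, and 2 of the 3 of KLF6, with 32 and 11, were not called again. At 8 of the 9 genes at least 1 peak was called again, IER5 being the other.

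AP-1 factors, the FOS and JUN family of leucine-zipper proteins, had 3 of 15 genes (20%) with 4 peaks. FOS had one 19599 bp before its start with 39 fragments in DMSO and 33 in inflachromene and one 1547 bp past its 3′ end with 44 and 39. ATF3 had 28 and 21. BATF had 14 and no inflachromene peak. Genes of MAPK feedback and EGFR ligands had 7 of 25 genes (28.0%) with 9 peaks, 5 called again. IER3, induced by growth factors, had a peak with 72 and 39 fragments, a ratio of 0.542 (0.357 to 0.811), and another with 29 and 19. At PHLDA1 the pileups were 53 and 47, and at PLAU, the urokinase gene, 22 and no inflachromene peak.

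Of the NF-kB and cytokine genes, 5 of 20 had 8 peaks, 5 of them called again. SOCS3, an inhibitor of cytokine signalling, had 37 and 18 fragments, a ratio of 0.486 (0.261 to 0.876). IL6 had 18 and 17, while CCL2 with 17 and TNFAIP2 with 16 had no inflachromene peak. Of the TGF-beta and SMAD genes, 5 of 18 had 6 peaks, 3 called again. SMAD6, an inhibitory SMAD, had 43 and 53 fragments 1090 bp before its start and 19 with no inflachromene peak past its 3′ end. LTBP2 had 33 and 27, and LTBP1 23 with none called. Of the YAP and TEAD targets, 5 of 24 had 5 peaks, 3 called again: CCN1 (54 and 49), ASAP1 (28 and 24) and FJX1 (20 and 21). LATS2, a kinase of the Hippo pathway, had 14 and no inflachromene peak.

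Identity genes of the epithelium and pancreas had 6 of 26 genes (23.1%) with 12 peaks, of which 4 were called again. MUC5AC, a secreted mucin gene, had 69 and 56 fragments, CLDN4, a tight junction gene, 26 and 17, SOX9, a ductal transcription factor gene, 25 and 16, and EPCAM 23 and 20. All 4 were lower in inflachromene, and all 4 intervals include 1. Mesenchymal and basal genes had 6 of 27 genes (22.2%) with 6 peaks, 1 of them called again, at ITGB1, an integrin gene, with 39 and 41 fragments. Those near S100A2 (24), ITGA3 (19) and TPM1 (17) had no inflachromene peak. The intervals of both shares, 9.92% to 65.1% for 4 of 12 and 0.421% to 64.1% for 1 of 6, include the 48.2% of all 2058. No difference between the lists was tested.

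Proliferation regulators had 4 of 24 genes with 5 peaks, 2 called again: CCNE1, the cyclin E gene, with 62 and 42 fragments, and CCND1, the cyclin D1 gene, with 38 and 28. MYBL2 with 11 and E2F7 with 12 had no inflachromene peak. Actin and focal adhesion genes had 5 of 20 with 7 peaks, 3 called again. FLNA, a filamin gene, had 97 and 60 fragments, a ratio of 0.619 (0.441 to 0.862), and VCL, the vinculin gene, 29 and 21. Constitutively expressed genes had 4 of 24 with 4 peaks, of which 1 was called again. None of 12 acinar and islet, 12 immune and 12 neuronal and liver genes was the nearest gene of a peak, and of 12 fibroblast and endothelial genes only COL1A1 was, with 14 fragments and no inflachromene peak.

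Outside the lists, 10 genes were nearest to 5 or more peaks, and these were picked out after their counts had been seen. DUSP1, a phosphatase that switches off MAP kinases, had 5 peaks with 24, 82, 28, 59 and 18 DMSO fragments, of which the first 3 were called again with 22, 75 and 32. FRMD8, beside the lncRNA NEAT1, had 5 with 4 called again. BAHCC1 had 5 with 2 called again. ZNF184 had 6, all with a small RNA gene within 1 kb, and 4 were called again.

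The peaks were also read against the state of their nearest gene's own ends. For 52.7% of the peaks the nearest gene had a DMSO peak within 1 kb of an end, where 45.7% of all coding genes did. The first share counts peaks, so a gene with several peaks enters several times, and the second counts genes. The 2 are thus not like for like. Where the nearest gene's end peak was shared with inflachromene, 52.8% (49.4 to 56.2) of 875 intergenic peaks were called again. Where it was not shared, 44.3% (37.4 to 51.3) of 210 were, and where the gene had none, 44.9% (41.8 to 48.1) of 973 were. The first group also had the highest median pileup, 22 fragments against 19 in both others, and a local background of 2.29 against 1.65 and 1.73.

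The limits of the rule passed through like peaks on both sides. Just inside 1 kb were a peak 1002 bp from ABT1 with 23 and 19 fragments, one 1004 bp from AHCY with 21 and 18, and that of EP300. Just outside were peaks 997 bp from VMP1 (69 and 68), 996 bp from ANGEL1 (12, not called again) and 991 bp from SLC2A4 (25 and 29). Just inside 50 kb were peaks near TCERG1L (16 and 27), THY1 (16, not called again) and FAM169A (15, not called again). Just outside were those near ZNF704, RB1CC1 and FAM72B, with 10, 9 and 20 fragments and no inflachromene peak.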

How the data were processed

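Peak lists were deposited for 1 DMSO and 1 inflachromene sample of PANC-1. The submitters' processing notes name MACS2, deepTools 3.5.6 and hg38. The aligner, the version of MACS2 and what was done with duplicates are not stated in the sources at hand. A row, as deposited, holds a position and summit offset, an integer score (not used), the fold enrichment (a ratio), and −log10 of the p-value and q-value. Deposited values of −log10 q start at 3.02 (DMSO) and 3.01 (inflachromene). Fragments over the summit were recovered from fold enrichment, (pileup + 1)/(background + 1), and the Poisson p-value; every peak matched within 0.001. The step, the overlaps and the position classes were tested on simulated data. This formula is MACS2's. Whether the authors called peaks against a control library is not stated in the sources at hand, so what the local background was measured from is not known.

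Positions come from RefSeq GRCh38.p14 (19970 coding and 18177 lncRNA genes); strands, which that table lacks, come from RefSeq promoter windows. Python 3.11.15, pandas 2.3.3 and scipy 1.17.1 were used. Depth is known only as a ratio between libraries. With 1 sample each, intervals of shares and fragments cover counting error only, and those of median ratios only the spread over peaks. The peaks, gene lists and comparisons were chosen with earlier results of these data known. Named peaks were the 10 of highest fold enrichment, the 8 strongest without an inflachromene peak, the 6 lowest and 4 highest ratios at a mean pileup of at least 30, the 3 widest, the 6 largest runs, up to 4 per gene list, up to 10 near small RNA genes, and 3 on each side of each distance limit; 1 peak that this rule names is not reported here. Alternatives covered overlap rules, thresholds, list length, distance windows and the strength measure.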

Additional observations from a re-analysis of the deposited data

How the results depend on the processing

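The share of intergenic peaks called again, 48.2%, lay between 46.4% and 50.1% when summits within 250 bp counted as overlap, when either threshold was raised to a −log10 q of 5, without chromosome 19, and in the 3 narrower distance windows. It was 43.6% when each peak had to cover 50% of the other, 63.7% when both lists were cut to the same length by −log10 p, and 50.6% with lncRNA ends ignored. Alternatives chosen after seeing the data gave 45.3% without small RNA genes and pseudogenes and 46.0% at a background of at most 5 fragments. The gap to gene-end peaks at equal strength, -13.6 percentage points, was -12.3 by −log10 p and -15.9 by pileup. The median ratio of 0.853 was 0.895 from the authors' fold enrichments and 0.827 at a mean pileup of at least 30, and 0.846 to 0.864 otherwise. Peaks in runs went from 132 to 41 when joined at 5 kb instead of 12500 bp. With either flanking gene counted, listed genes went from 60 to 83, and all coding genes from 1682 to 2450 (12.3%). AP-1 factors went from 3 to 7 and actin genes from 5 to 8. Immune markers went from 0 to 1 and neuronal and liver markers from 0 to 2. What could be seen at weak peaks depended on the local background. The fewest fragments called anywhere were 7. In inflachromene the fewest were 12 at backgrounds within 10% of 2.32 and 26 within 10% of 8.38. No paired analysis was possible because each treatment has 1 sample.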

Other observations

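Under the same rule of position, 234 of the 1230 intergenic inflachromene peaks overlapped no DMSO peak. They were weak, with a median of 15 fragments against 21 for all 1230. The strongest lay 1315 bp from TMEM216, a gene of the ciliary transition zone (chr11:61391252-61391434), with 34 fragments over a background of 1.74 and the nearest DMSO peak 28825 bp away. It was followed by a peak 19530 bp from CARD10, a scaffold of NF-kB signalling, with 29 fragments, and by peaks near STX16, a syntaxin gene, with 24, GJA3, a gap junction gene, with 23, SLC32A1, a vesicular transporter gene, with 20, and ZNF429 with 14. The 1066 DMSO peaks without an inflachromene peak were 4.56 times as many as these 234.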
